A study of Mus musculus with 30 samples.

Results

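RNA of motor neurons made from a mouse embryonic stem (ES) cell line named HD was compared with RNA of wild-type (WT) motor neurons made by the same induction, across all genes. The labels give HD the genotype Mnx1KO, a knockout of the motor neuron gene Mnx1, and do not explain the name HD. These are 2 HD and 2 WT libraries, 4 of the 8 RNA libraries and of the 30 samples of the series, chosen by their group labels. Both groups grew as floating aggregates and were collected on day 6. They received 1 µM each of SAG (an activator of hedgehog signalling), retinoic acid and doxycycline, and 5 µM of DAPT, which blocks Notch. What doxycycline does in these lines is not given in the labels. Nothing in the labels states that the replicates came from different cultures, how many clones HD stands for, or whether the WT cells are its parental line. Each error and p-value therefore covers only the spread between these libraries, which may be technical, and a difference between HD and WT cannot be told apart from a difference between 2 cell lines that has another origin.

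Mnx1, also called Hb9, is a homeodomain transcription factor that postmitotic motor neurons share with few other cells. In the mouse spinal cord it keeps motor neurons from taking on features of interneurons, the neurons that connect other neurons, and it acts beside the LIM homeodomain factors Isl1 and Lhx3. Motor neurons use acetylcholine as transmitter, while most of the interneurons around them use GABA, glycine or glutamate, and Hox, Lim and Pou factors set which muscle or ganglion a motor neuron reaches.

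Expected counts, the read numbers that RSEM assigns to each gene, summed to 11167544 and 12435800 in the HD libraries and to 13916957 and 13899577 in the WT libraries. Of 45706 genes listed, 15182 had enough counts to be tested. Mitochondrial transcripts took 2.47 and 2.25% of the counts in HD and 1.97 and 2.36% in WT. Motor neuron markers were abundant in all 4 libraries: 8 marker genes, of which Isl2 was called lower, summed to 1653 and 1448 TPM (a level per transcript length) in HD and to 1821 and 1492 TPM in WT. Markers of undifferentiated ES cells summed to 92.9 and 85.4 TPM in HD and to 142.6 and 154.1 TPM in WT, and 2 of the 7 measured (Dppa5a and Esrrb) were called lower. No gene was called among the measured markers of astroglia (7 genes), oligodendrocyte lineage (6), floor plate (6), neural crest (5), mesoderm (8), endothelium (6), blood (1), endoderm (10) or trophoblast (13). Over all genes tested 2.21% were called, and 0.507% were called lower, so lists of these sizes would often hold no call. The lack of calls therefore does not show equal amounts of such cells in HD and WT. Trophoblast markers were far from absent, at a sum of 569 and 758 TPM in HD and of 699 and 652 TPM in WT. Endoderm markers summed to 1016 and 1326 TPM in HD and to 1176 and 1453 TPM in WT. Most of that sum came from 2 keratin genes, Krt8 (545.5 and 741.9 TPM in HD, 636.5 and 790.2 TPM in WT) and Krt18 (416.2 and 540.8 TPM in HD, 479.3 and 600.2 TPM in WT). Other endoderm markers were low, such as Foxa2 (3.61 and 3.22 TPM in HD, 5.23 and 3.55 TPM in WT) and Gata4 (1.80 and 1.91 TPM in HD, 2.62 and 2.68 TPM in WT). The part that such cells play in the differences below was not tested, and in a bulk sample fewer cells of a type and less RNA per cell cannot be told apart.

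Mnx1 itself (ENSMUSG00000001566) stood at 431.2 and 369.7 CPM (counts scaled to library size with TMM) in HD and at 466.4 and 415.9 CPM in WT. The groups overlapped, and the log2 fold change of -0.14 ± 0.09 (± is the standard error for all fold changes here) did not pass edgeR's quasi-likelihood test (Benjamini-Hochberg adjusted p = 0.608). RSEM's effective length of the gene, which shifts with the transcript forms its reads fit, was 1979 and 2029 bases in HD and 2085 and 2075 bases in WT. A count per gene does not show a change inside the transcript, so these values do not check the knockout.

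At an adjusted p under 0.05, 336 of the 15182 genes tested differed (2.21%): 259 were higher in HD (1.71%) and 77 were lower (0.507%). Counts of calls in the gene lists below are to be read beside these shares. At least 2-fold differences made up 116 of these calls, 91 higher and 25 lower. The median log2 fold change was 0.80 over the higher genes, -0.73 over the lower genes and -0.01 over all genes tested. Of the calls, 9 genes with provisional or pseudogene names had 0 to 2 counts in a group and a deposited SD of their assigned counts of 56.6 to 260.6% of them, so they are not named. Both HD libraries lay above both WT libraries in 21.8% of the genes tested and below them in 21.8%. With each library left out in turn, 156 of the 336 genes were called every time. The count was 203 without HD replicate 1, 533 without HD replicate 2, 266 without WT replicate 1 and 311 without WT replicate 2, 91 with limma on log2(TPM + 1), and 27 when the 2 libraries of the other Mnx1KO line, EH, entered the same fit. In the text below, a call that ended when 1 of the 4 libraries was left out is named with that library and the highest adjusted p this gave.

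**Figure D1:**
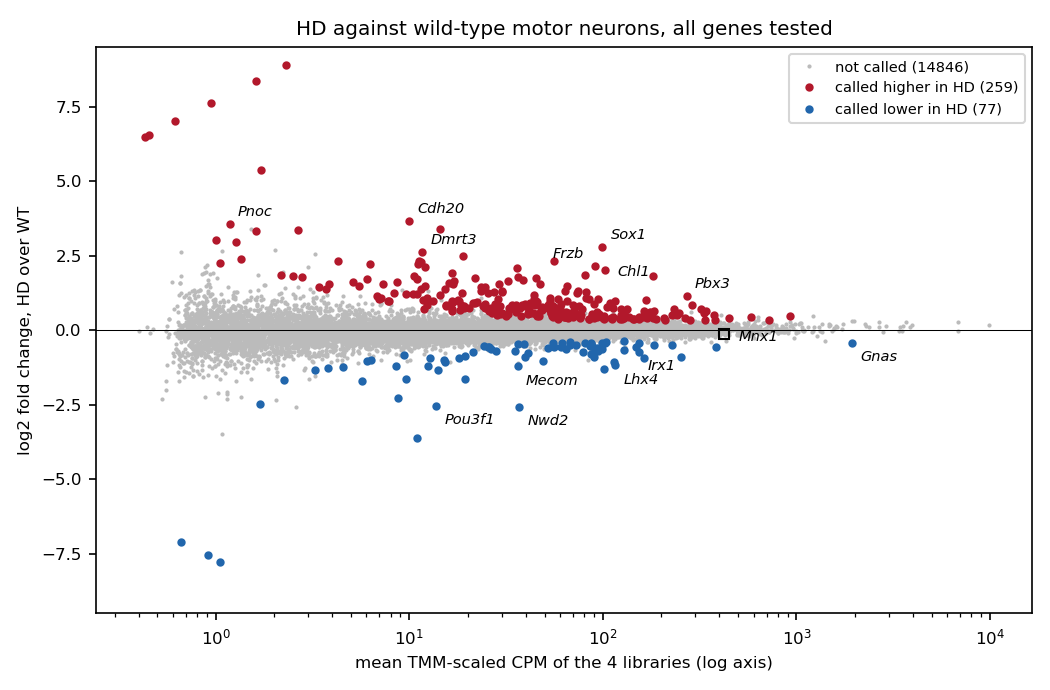
Log2 fold change of HD over WT against mean level (TMM-scaled CPM, log axis) for each of the 15182 genes tested, with the 259 genes called higher in red, the 77 called lower in blue and Mnx1 as an open square. Calls lie across most of the range of levels, and the most extreme fitted values belong to genes with 0 to 2 counts in 1 of the groups, whose fitted folds are no measure of size.

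The largest rises were in genes of varied roles, and Cdh20 had the largest of those named. Cdh20, a type II cadherin that holds like neurons together (chromosome 1, 104768340 to 104995481, GRCm38.p6), had 18.7 and 18.4 CPM in HD and 0.920 and 2.01 CPM in WT. The 2 HD libraries were close to each other and far above both WT libraries, and the gene rose by 3.66 ± 0.27 on the log2 scale (edgeR adjusted p = 0.000825). Sox1, a SoxB1 factor of neural progenitors that a subset of spinal V2 interneurons keeps, had 179.6 and 168.2 CPM in HD and 16.3 and 33.9 CPM in WT. Its groups did not overlap, which the rule for naming the largest changes asks for, and the WT libraries differed about 2-fold from each other. Sox1 rose by 2.79 ± 0.26 on the log2 scale (edgeR adjusted p = 0.00214). Sox1ot, a long noncoding RNA that overlaps Sox1, moved the same way at a log2 fold change of 2.30 ± 0.17; whether reads were assigned by strand is not given in the sources used here, so reads of this pair may be shared.

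Dmrt3, the factor of dI6 interneurons that is known from the gait of horses and mice, had 18.4 and 21.7 CPM in HD and 3.26 and 3.30 CPM in WT (log2 fold change 2.61 ± 0.17, edgeR adjusted p = 0.00055). Sorcs3, a sorting receptor of the Vps10 family, had 99.0 and 87.9 CPM in HD and 15.99 and 21.54 CPM in WT (log2 fold change 2.32 ± 0.14). Frzb, a secreted antagonist of Wnt ligands, had 152.4 and 143.3 CPM in HD and 28.9 and 38.2 CPM in WT (log2 fold change 2.14 ± 0.12). In all 3 genes the HD libraries lay above the WT libraries with a gap wider than the spread within either group. The other named rises were Sox6 (log2 fold change 2.47 ± 0.28), a SoxD factor, the neuregulin receptor gene Erbb4 (2.31 ± 0.26), Scube2 (2.21 ± 0.27), whose product helps to release hedgehog ligands, the LIM-only gene Lmo3 (2.13 ± 0.22) and the synaptotagmin gene Syt6 (2.08 ± 0.22). The homeobox gene Nkx1-1 (3.36 ± 0.52) and Pnoc (3.55 ± 0.46), which encodes the precursor of nociceptin, were below 1 CPM in both WT libraries. Of the 20 largest rises 15 were called with each library left out in turn. The calls of Pcp4 (without HD replicate 1, adjusted p = 0.0544), Frmpd4 (without WT replicate 1, 0.104), Slc17a8 (without HD replicate 2, WT replicate 1 or WT replicate 2, up to 0.134), Trpc5 (without any of the 4 libraries, up to 0.172) and Slc6a5 (without HD replicate 1, WT replicate 1 or WT replicate 2, up to 0.102) ended.

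The largest falls included Nwd2 and Pou3f1. Nwd2, which encodes a protein with WD repeats, had 9.96 and 11.3 CPM in HD and 70.5 and 55.6 CPM in WT (log2 fold change -2.57 ± 0.15, edgeR adjusted p = 0.000464). Pou3f1, a POU-domain factor of motor neurons that supply forelimb muscles and the diaphragm (chromosome 4, 124657646 to 124660655, GRCm38.p6), had 3.89 and 4.23 CPM in HD and 23.1 and 24.0 CPM in WT. Replicates agreed closely in each group and the groups were far apart, and the fitted log2 fold change was -2.53 ± 0.14 (edgeR adjusted p = 0.000464). Also lower were the zinc finger gene Zfp804a (log2 fold change -1.64 ± 0.12), Cbln2 (-1.72 ± 0.26), which encodes a secreted organiser of synapses, Arhgap25 (-1.63 ± 0.17), a regulator of Rac, and the postsynaptic density gene Begain (-1.30 ± 0.18). Lix1 (-1.21 ± 0.14), Prdm16 (-1.06 ± 0.12), Lhx4, Mecom and Epha4, taken up below, and the zinc finger gene St18 (-1.05 ± 0.12) followed. Of the 20 largest falls 12 were called with each library left out in turn. The calls of Fam205a4 (without HD replicate 1, adjusted p = 0.0544), Inpp4b (without HD replicate 1 or WT replicate 1, up to 0.0961), Grin2c (same libraries, up to 0.0648), Klhl1 (without HD replicate 1, WT replicate 1 or WT replicate 2, up to 0.164), Crnde (without WT replicate 1, 0.0612), Tnr (without WT replicate 1, 0.098), Ctsh (without any of the 4 libraries, up to 0.0961) and Tmem255a (likewise, up to 0.106) ended. Fam205a4 had 0 counts in both HD libraries and was at least 10.3-fold lower by a floor of 3 counts over the group, but it belongs to a family of close copies and the deposited SD of its assigned counts came to 46.0% of them.

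**Figure D2:**
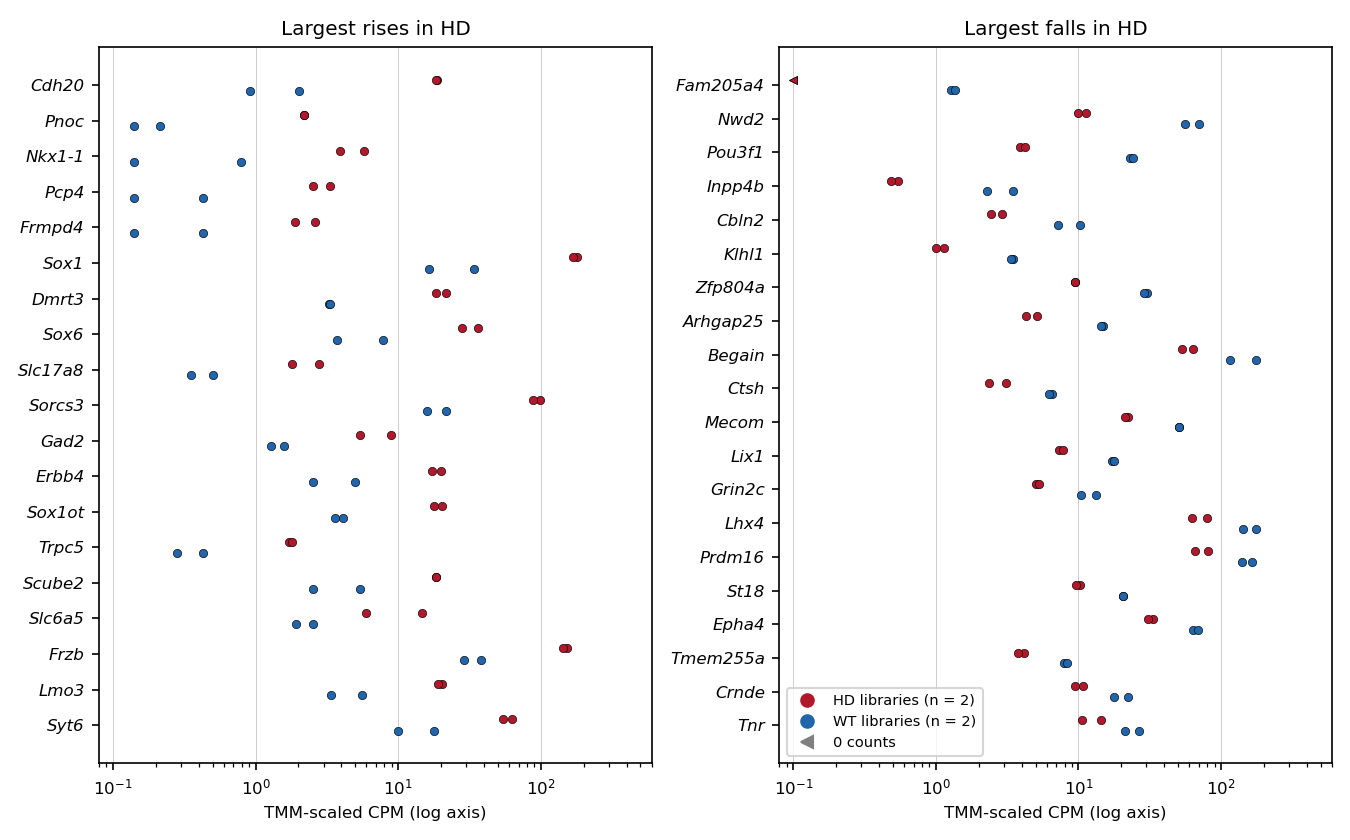
TMM-scaled CPM (log axis) of the genes reported among the 20 largest rises and the 20 largest falls, with each HD library in red on the upper line of a gene and each WT library in blue on the lower line; a triangle marks 0 counts. In none of them do the groups overlap, which the naming rule asks for; Cdh20 shows 18.7 and 18.4 CPM in HD, and Pou3f1 3.89 and 4.23 CPM in HD.

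A list of spinal motor neuron factors and markers, which also holds general neuronal genes such as Rbfox3 and Tubb3, had calls in both directions. Of 22 tested, 4 were higher and 4 lower, with a median log2 fold change of 0.14. The LIM homeodomain gene Lhx4, which acts with Lhx3 in newborn motor neurons, had 79.9 and 62.6 CPM in HD and 176.0 and 142.9 CPM in WT (log2 fold change -1.16 ± 0.14, edgeR adjusted p = 0.00531). The groups did not overlap, as the naming rule asks of the largest falls. Its partners did not pass the test: Lhx3 had a log2 fold change of 0.18 ± 0.08 and Isl1 of 0.11 ± 0.12 (edgeR adjusted p = 0.393 and 0.75). Rbfox3, the NeuN gene of mature neurons (1.08 ± 0.10), the factor gene Ebf3 (0.92 ± 0.09) and the LIM-only gene Lmo4 (0.71 ± 0.10) rose. Isl2 had 54.6 and 64.4 CPM in HD and 111.2 and 86.2 CPM in WT (-0.73 ± 0.13), but its call ended without HD replicate 1 or WT replicate 1 (adjusted p up to 0.138). So did those of Arhgap36, an activator of hedgehog signalling in motor neurons (-0.58 ± 0.11, up to 0.0992), and, also without WT replicate 2, of Esrrb (-0.85 ± 0.15, up to 0.138) and Cdh7 (1.87 ± 0.36, up to 0.238). Esrrb is also one of the ES cell markers given above, whose summed level was 92.9 and 85.4 TPM in HD and 142.6 and 154.1 TPM in WT, and the part of such cells in its fall was not tested.

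No cholinergic gene passed the test. None of 8 was called, at a median of 0.11. With 2.21% called over all genes tested, a list of 8 would often hold no call. Chat, the enzyme that makes acetylcholine, had 104.2 and 104.5 CPM in HD and 177.6 and 134.1 CPM in WT, or -0.58 ± 0.12 as a log2 fold change (edgeR adjusted p = 0.0636). Both HD libraries lay below both WT libraries, and the WT libraries differed more from each other than the HD libraries did. Slc5a7, the choline transporter (-0.47 ± 0.13, edgeR adjusted p = 0.134), and Slc18a3, the vesicular acetylcholine transporter (-0.19 ± 0.07, 0.303), were not called.

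Motor column genes, which separate motor neurons that supply axial muscles, limbs and ganglia, held 3 rises and 4 falls among 24 tested (median -0.15), and all 7 were called with each library left out. Foxp1, the Hox cofactor of limb and preganglionic columns, had 121.9 and 132.4 CPM in HD and 52.9 and 70.0 CPM in WT (log2 fold change 1.05 ± 0.13). Mecom, a zinc finger gene of the median column that supplies axial muscles, had 22.4 and 21.3 CPM in HD and 50.9 and 50.7 CPM in WT (-1.22 ± 0.09, edgeR adjusted p = 0.00085). The replicates of Mecom were nearly equal within each group. Epha4, the ephrin receptor that steers limb axons dorsally, had 33.4 and 30.9 CPM in HD and 63.2 and 68.8 CPM in WT (-1.04 ± 0.09), and Pou3f1, given above, is also of this list. Pbx3, which binds DNA beside Hox proteins, was at 375.7 and 368.0 CPM in HD and at 162.4 and 175.2 CPM in WT (1.14 ± 0.07), and its groups were far apart.

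Among genes of cranial and visceral motor neurons 2 of 9 rose and none fell. Tbx20, a T-box gene of these neurons, had 11.8 and 11.6 CPM in HD and 5.87 and 3.88 CPM in WT and rose by 1.26 ± 0.21, a call that ended without HD replicate 1 (adjusted p = 0.0693). The list's median of -0.20 had the other sign, since 6 of the 7 uncalled genes had negative values.

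Interneuron factors gave single genes rather than whole sets. Of 15 factors of V0, V1 and dI6 interneurons, Dmrt3 rose, as did the zinc finger gene Sall3 (1.37 ± 0.25), whose call ended without HD replicate 1, WT replicate 1 or WT replicate 2 (adjusted p up to 0.196). Of 11 factors of V2 and V3 interneurons, Sox1 and the nicotinic subunit gene Chrnb4 (0.84 ± 0.10) rose and Lhx4 fell. Of 11 dorsal factors, Gbx2, a homeobox gene of the hindbrain border that dorsal interneurons also use, rose with 23.5 and 20.4 CPM in HD and 9.48 and 7.47 CPM in WT (1.37 ± 0.16). The medians of these 3 lists were 0.08, -0.07 and 0.45. Of 18 neural progenitor genes Sox1 rose and Irx3 and Irx5 fell (median -0.10).

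Transmitter genes of inhibitory neurons gave rises and no falls. Of 19 genes of GABA and glycine transmission 4 rose and none fell (median 0.20). Over all genes tested 1.71% were called higher and 0.507% lower, so a list of this size would seldom hold a fall. Gad2, an enzyme that makes GABA, had 8.96 and 5.37 CPM in HD and 1.27 and 1.58 CPM in WT (log2 fold change 2.31 ± 0.33, edgeR adjusted p = 0.0134). Gad1, the other such enzyme, had 5.07 and 4.96 CPM in HD and 1.42 and 2.23 CPM in WT (1.46 ± 0.28), and Slc6a5, the neuronal glycine transporter, had 14.7 and 5.94 CPM in HD and 1.91 and 2.51 CPM in WT (2.20 ± 0.44). The groups did not overlap in any of these genes, but the HD libraries of Slc6a5 lay far apart. Gphn, the scaffold of inhibitory synapses, rose by 0.45 ± 0.08. The call of Gad2 was made with each library left out, while that of Gad1 ended without HD replicate 1 or WT replicate 1 (adjusted p up to 0.151) and those of Slc6a5 and Gphn also without WT replicate 2 (up to 0.102 and 0.158); that of Slc6a5, at an adjusted p of 0.0495, also ended under other scalings.

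Among 26 glutamate genes Slc17a8, a vesicular glutamate transporter, was called higher (2.40 ± 0.44, at 1.81 and 2.77 CPM in HD and 0.354 and 0.503 CPM in WT) and Grin2c, an NMDA receptor subunit gene, lower (-1.20 ± 0.19), both with calls that ended as given above. None of 11 monoamine genes was called. Of 8 nicotinic receptor genes tested, 3 that lie side by side in the genome rose (1.71% of all genes tested were called higher). Chrna5 had 42.6 and 44.1 CPM in HD and 12.8 and 16.8 CPM in WT (1.55 ± 0.13), Chrnb4 had 46.0 and 41.4 CPM in HD and 24.97 and 23.7 CPM in WT (0.84 ± 0.10), and Chrna3 rose by 0.50 ± 0.09, a call that ended without HD replicate 1 or WT replicate 2 (adjusted p up to 0.194). The enzyme gene Pcsk1, which cuts prohormones in dense core vesicles, had 28.6 and 23.8 CPM in HD and 6.44 and 7.40 CPM in WT (1.92 ± 0.15), and Cadps2, of vesicle release, rose by 0.67 ± 0.10 (not without HD replicate 1, adjusted p = 0.0544). Pnoc was the only call among 14 neuropeptide precursors.

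Most calls among adhesion genes were higher, as were 77.1% of all calls, and whether these shares differ was not tested. Over all genes tested 1.71% were called higher and 0.507% lower. Of 17 type I and II cadherins 4 rose and none fell (median 0.24): Cdh20, Cdh11 (log2 fold change 0.86 ± 0.09), Cdh7 and Cdh8, the last of which (1.81 ± 0.30) was not called without HD replicate 1 or WT replicate 1 (adjusted p up to 0.136). Cdh7 was lost as given above. None of 13 gene IDs of alpha protocadherins was called (median 0.30). Pcdha11 stands on 2 of them, with log2 fold changes of 0.296 and 0.292. The deposited SD of assigned counts was 5.04 to 23.2% of the counts over these IDs, so their read assignment is uncertain. Of 9 delta protocadherins, homophilic adhesion proteins of axons, 5 rose and none fell (median 0.45). Pcdh17 had 14.0 and 12.0 CPM in HD and 4.10 and 4.31 CPM in WT (1.63 ± 0.17), and Pcdh19 had 28.6 and 24.3 CPM in HD and 11.04 and 11.2 CPM in WT (1.25 ± 0.13). Both were called with each library left out, while the calls of Pcdh8 (0.66 ± 0.12, without WT replicate 1, adjusted p = 0.0908), Pcdh11x (1.06 ± 0.19, without HD replicate 1 or WT replicate 1, up to 0.0947) and Pcdh7 (0.45 ± 0.08, also without WT replicate 2, up to 0.236) ended.

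Of 24 genes of the L1, NCAM and contactin group 5 rose and 1 fell (median 0.22). Chl1, a relative of L1 that guides growing axons, had 172.1 and 156.0 CPM in HD and 36.7 and 44.2 CPM in WT, or 2.02 ± 0.10 as a log2 fold change (edgeR adjusted p = 0.000464). St8sia4, the enzyme that adds polysialic acid to Ncam1, had 61.2 and 57.6 CPM in HD and 17.3 and 19.5 CPM in WT (1.69 ± 0.10). Alcam, an adhesion protein of motor and sensory axons, rose by 1.27 ± 0.14. In each of these genes both HD libraries lay above both WT libraries. Calls of Dscam (0.74 ± 0.12, without WT replicate 1, adjusted p = 0.0795), Cntn5 (1.54 ± 0.26, without HD replicate 1 or WT replicate 2, up to 0.0765) and Negr1 (-0.74 ± 0.12, without WT replicate 2, 0.0589) ended. Among 36 leucine-rich repeat and synaptic adhesion genes Islr2 (0.63 ± 0.07) rose, and Tenm2 (0.54 ± 0.10) and Tenm4 (0.56 ± 0.09) were called but ended without WT replicate 1 (adjusted p up to 0.196 and 0.0915), Tenm2 also without HD replicate 1.

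Of 13 genes of netrins and their receptors 5 rose and none fell (median 0.15), beside 1.71% called higher and 0.507% lower over all genes. Unc5d, a repulsive netrin receptor, had 36.1 and 31.5 CPM in HD and 8.98 and 11.1 CPM in WT (log2 fold change 1.75 ± 0.14), and Ntng1, a membrane-bound netrin relative, had 97.5 and 83.8 CPM in HD and 33.5 and 39.5 CPM in WT (1.31 ± 0.11). The receptor gene Neo1 (0.58 ± 0.07) and Draxin (0.67 ± 0.09), which encodes a secreted repellent, rose less, and Lrrc4c, a binding partner of netrin G1 (0.65 ± 0.12), was not called without HD replicate 1 or WT replicate 1 (adjusted p up to 0.151). Of 29 semaphorins, neuropilins and plexins 5 rose and none fell (median 0.06): Sema3c (0.84 ± 0.08), Sema6a (0.50 ± 0.07), Plxnc1 (0.95 ± 0.13), Plxna2 (0.56 ± 0.08, lost without HD replicate 1, adjusted p = 0.0544) and Plxna1 (0.33 ± 0.06, lost without any of the 4 libraries, up to 0.217). Robo1, a Slit receptor, was at 229.4 and 221.1 CPM in HD and at 150.1 and 136.9 CPM in WT (0.65 ± 0.07). Srgap3, of the same list of 9, rose by 0.34 ± 0.07 and lost its call without any 1 library (up to 0.272). Of 22 ephrins and Eph receptors Epha4 fell and Ephb1 rose (0.59 ± 0.11), the call of Ephb1 ending without HD replicate 1 or WT replicate 1 (adjusted p up to 0.142).

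**Figure D3:**
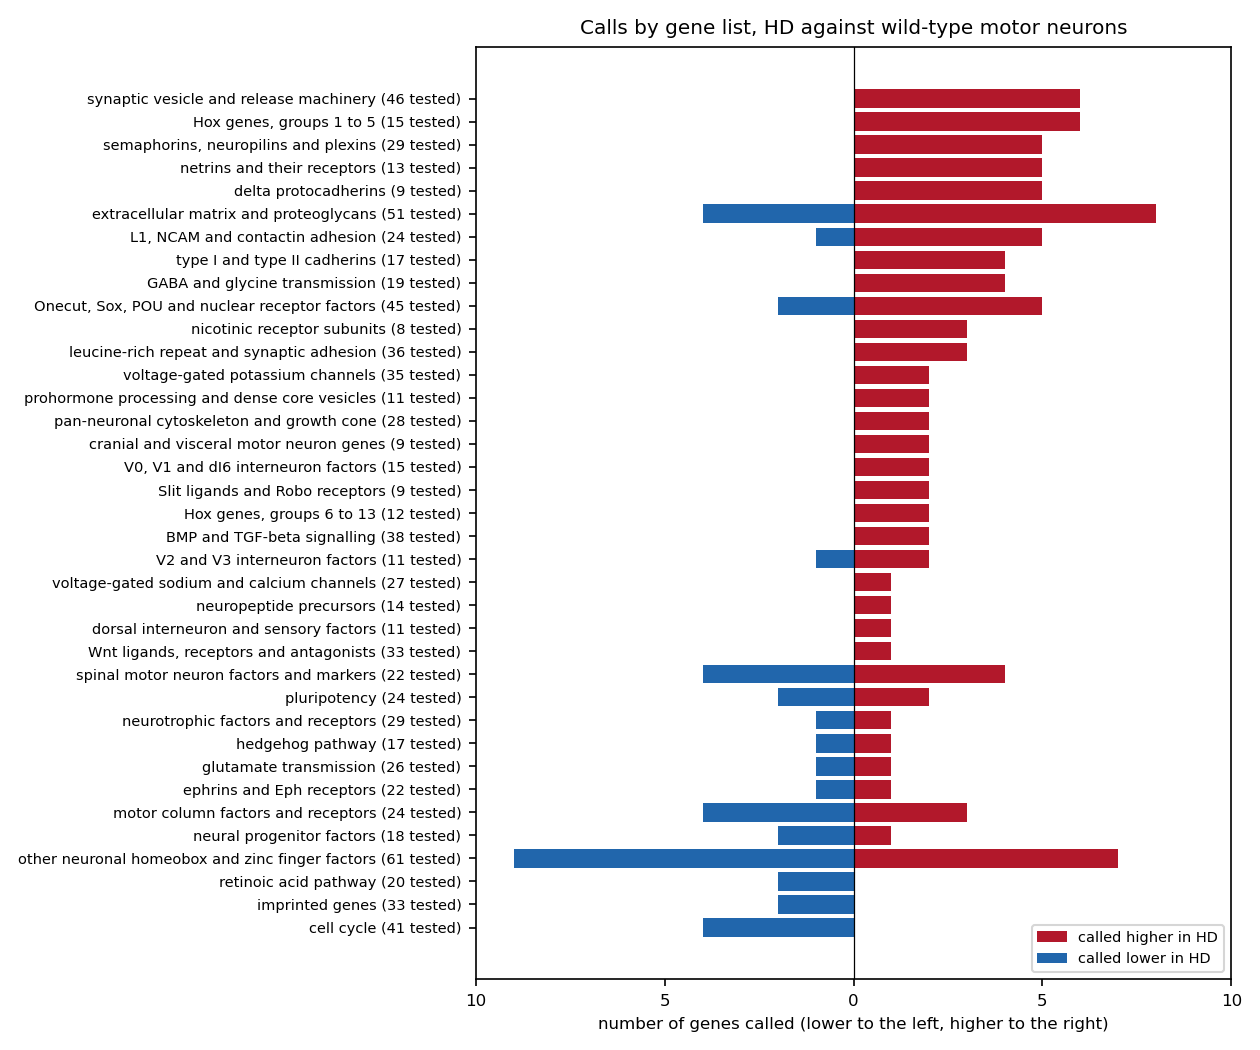
Number of genes called higher (red, to the right) and lower (blue, to the left) in HD for each of the 37 gene lists, out of 45, with at least 1 call; the number tested stands beside each name. Delta protocadherins show 5 calls higher of 9 tested, synaptic vesicle genes 6 of 46, and cell cycle genes 4 lower of 41, while calls over all genes were 1.71% higher and 0.507% lower.

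Each signalling list held between 0 and 2 calls, beside 2.21% called over all genes. Frzb was the only call among 33 Wnt genes (median -0.09). Of 38 BMP and TGF-beta genes Bmp7 rose, with 146.5 and 159.6 CPM in HD and 76.7 and 78.4 CPM in WT (log2 fold change 0.98 ± 0.07), as did the activin receptor gene Acvr2a (0.44 ± 0.07, lost without HD replicate 1 or WT replicate 2, adjusted p up to 0.196). Of 29 genes of neurotrophic factors and their receptors Sorcs3 rose and Ntf3 fell (median 0.02), and of 17 hedgehog genes Scube2 rose and Arhgap36 fell (median -0.21). Ntf3, the neurotrophin of proprioceptive neurons, had 32.6 and 28.0 CPM in HD and 54.6 and 48.0 CPM in WT (-0.76 ± 0.11). Of 20 retinoic acid genes Rxrg (-0.62 ± 0.11) and Stra8 (-0.50 ± 0.07) were called lower, neither of them without HD replicate 1 (adjusted p up to 0.0857 and 0.0896). None of 20 FGF, 19 Notch and proneural, 31 p53, stress and hypoxia, or 19 activity-dependent early genes was called. None of 26 interferon-response genes was called either, although all 26 had negative values (median -0.36). At an unadjusted p under 0.05, edgeR gave 2008 genes over the whole table.

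Some Hox genes, which set position along the body axis, rose and none fell. Of 15 genes of groups 1 to 5, 6 rose and none fell, with 14 positive values and a median of 0.38. Of 12 genes of groups 6 to 13, 2 rose and none fell, with 11 positive values and a median of 0.50. Over all genes tested 47.7% of values were positive, at a median of -0.01. Hoxb5 had 408.8 and 387.5 CPM in HD and 226.8 and 258.2 CPM in WT (log2 fold change 0.72 ± 0.08, edgeR adjusted p = 0.00515). Hoxd4 had 54.3 and 47.8 CPM in HD and 28.4 and 26.9 CPM in WT (0.88 ± 0.10), and Hoxd1 had 10.1 and 8.54 CPM in HD and 2.34 and 3.30 CPM in WT (1.72 ± 0.23). The groups were apart in each of these genes, and Hoxb3 (0.54 ± 0.07) and Hoxb6 (0.62 ± 0.09) rose as well. Calls of Hoxa5 (0.50 ± 0.07) and Hoxb7 (0.59 ± 0.11) ended without HD replicate 1 or WT replicate 1 (adjusted p up to 0.0884 and 0.104) and that of Hoxd3 (0.71 ± 0.14) without HD replicate 1 or WT replicate 2 (up to 0.133). Hoxb8 (0.67 ± 0.14) and Hoxb9 (1.07 ± 0.24) were not called (edgeR adjusted p = 0.0561 and 0.0783).

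Of 6 Irx genes tested 4 fell. Iroquois factors are homeodomain proteins of the progenitor zones beside the motor neuron domain, coded in 2 clusters on chromosomes 13 and 8. Irx1 had 121.0 and 111.4 CPM in HD and 198.2 and 183.6 CPM in WT (log2 fold change -0.72 ± 0.08, edgeR adjusted p = 0.00422). Irx2 had 73.5 and 52.8 CPM in HD and 125.7 and 108.8 CPM in WT (-0.90 ± 0.15), and Irx3 had 98.8 and 99.5 CPM in HD and 171.4 and 144.8 CPM in WT (-0.67 ± 0.09). In all 3 the HD libraries lay below the WT libraries. Irx5 fell by 0.53 on the log2 scale, a call that ended without HD replicate 1 or WT replicate 1 (adjusted p up to 0.0735), and Crnde, a noncoding gene next to it, was called as given above. Irx4, at 2.26 and 2.52 CPM in HD and 2.12 and 3.16 CPM in WT, and Irx6, at 2.63 and 2.12 CPM in HD and 1.27 and 1.00 CPM in WT, were not called. The HD libraries of Irx6 lay above its WT libraries, at a log2 fold change of 1.05 ± 0.34, opposite in sign to the 4 called genes.

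**Figure D4:**
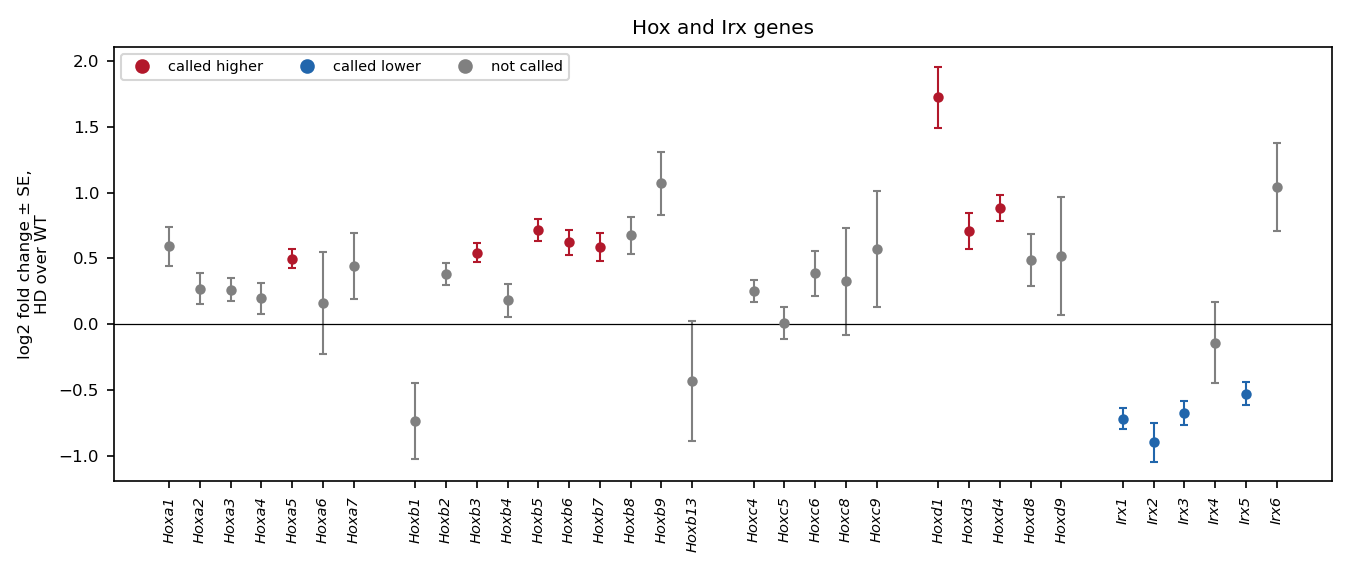
Log2 fold change of HD over WT with its standard error for each Hox and Irx gene tested, red for genes called higher, blue for genes called lower and grey for the rest. Hox genes lie mostly above 0, and the 4 called Irx genes lie between -0.90 and -0.53.

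Other transcription factors moved in both directions. Of 45 Onecut, Sox, POU and nuclear receptor genes 5 rose and 2 fell (median -0.06). Nr2f1, a nuclear receptor that patterns the nervous system, had 215.9 and 229.7 CPM in HD and 107.5 and 115.3 CPM in WT (log2 fold change 1.00 ± 0.07), and Onecut1, a factor shared by motor neurons and Renshaw cells, had 113.8 and 116.0 CPM in HD and 49.2 and 60.9 CPM in WT (1.06 ± 0.11). Both genes were separated by more than the spread of either group, and Onecut2 (0.65 ± 0.10) was called except without HD replicate 1 (adjusted p = 0.0563). Of 61 other homeobox and zinc finger genes 7 rose and 9 fell (median -0.03). Besides the Irx genes, Prdm16 and St18, the falls included Dach1 (-0.81 ± 0.10) and Zfhx3 (-0.58 ± 0.10, lost without WT replicate 2, adjusted p = 0.0862). Besides Pbx3 and Sall3, the rises included Nhlh2 (0.62 ± 0.11), Bhlhe23 (0.64 ± 0.12), Scrt2 (0.46 ± 0.08) and Sall2 (0.38 ± 0.07), and none of these last 4 was called without WT replicate 1 (up to 0.129, 0.0814, 0.106 and 0.31); Bhlhe23, Scrt2 and Sall2 also ended without WT replicate 2, and Nhlh2, Scrt2 and Sall2 without HD replicate 1.

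Of 46 genes of synaptic vesicles and release 6 rose and none fell, 36 had positive values (47.7% of all genes tested did), and the median was 0.16. All 6 were called with each library left out. Syt4, a synaptotagmin, had 76.8 and 62.6 CPM in HD and 20.2 and 21.1 CPM in WT (log2 fold change 1.75 ± 0.12), and Lin7a, a presynaptic scaffold gene, had 133.4 and 118.9 CPM in HD and 30.1 and 39.3 CPM in WT (1.86 ± 0.13). The SNARE gene Snap25 had 288.3 and 292.1 CPM in HD and 167.0 and 189.8 CPM in WT (0.70 ± 0.08). Synpr (1.63 ± 0.21) and Syt6 rose as well, and no HD library of the 6 genes fell within its WT range. Of 28 pan-neuronal genes of the cytoskeleton and growth cone 25 had positive values, at a median of 0.22, but only Rbfox3 and Gap43 (0.44 ± 0.07, lost without HD replicate 1 or WT replicate 2, adjusted p up to 0.0816) were called. Tubb3, a tubulin of all neurons, was at 0.21 ± 0.06 (edgeR adjusted p = 0.186). Among 27 sodium and calcium channel genes Cacna2d3 rose by 1.24 ± 0.14 (median 0.15), and among 35 potassium channel genes (median 0.12) Kcnb2 (0.85 ± 0.15) and Kcnd2 (0.86 ± 0.15) were called except without HD replicate 1 or WT replicate 1 (up to 0.122 and 0.151).

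Of 41 cell cycle genes tested 4 were called lower and 37 did not pass the test, with 5 positive values and a median of -0.27. None of the 4 was called with every library left out in turn. The helicase genes Mcm2 (-0.42 ± 0.08) and Mcm5 (-0.43 ± 0.08) lost their calls without HD replicate 1 or WT replicate 2 (adjusted p up to 0.266 and 0.257), and Top2a (-0.35 ± 0.07) and Bub1 (-0.52 ± 0.10) without any 1 library (up to 0.249 and 0.2). Mki67, the marker of cycling cells, had 76.8 and 89.9 CPM in HD and 106.4 and 106.7 CPM in WT (-0.35 ± 0.09, edgeR adjusted p = 0.116). Pluripotency genes had a median of -0.42 over 24 tested. The orphan receptor gene Nr0b1 (1.60 ± 0.18) and Lin28b (0.74 ± 0.11, lost without HD replicate 1 or WT replicate 1, up to 0.0635) rose among them, against the fall of Dppa5a (-0.85 ± 0.14, lost without WT replicate 2, 0.0519) and Esrrb. Of 33 imprinted genes Dlk1 had 187.3 and 162.3 CPM in HD and 381.1 and 277.3 CPM in WT (-0.91 ± 0.14), and Gnas was called (-0.42 ± 0.07) except without HD replicate 1 or WT replicate 1 (up to 0.127).

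Of 51 extracellular matrix genes 8 rose and 4 fell (median -0.16). Reln, the secreted guide of migrating neurons, had 36.1 and 31.1 CPM in HD and 12.3 and 14.6 CPM in WT (log2 fold change 1.32 ± 0.13). Fras1, a basement membrane gene, had 61.4 and 57.4 CPM in HD and 28.4 and 28.8 CPM in WT (1.05 ± 0.09). Vcan (0.57 ± 0.07) and Gpc6 (0.93 ± 0.13), of proteoglycans, rose with every library left out in turn as well. The other 4 rises (Col11a1, Col12a1, Spock3 and Sdc3) and all 4 falls (Col5a1, Col18a1, Spock1 and Tnr) ended when a library was left out, Col12a1 and Tnr without WT replicate 1 and the other 6 without HD replicate 1 among others (adjusted p between 0.0539 for Col12a1 and 0.268 for Sdc3). Another 2 genes outside all lists had adjusted p-values as low as any: Dab1, the intracellular adaptor of the Reln signal, with 100.5 and 105.0 CPM in HD and 43.2 and 43.9 CPM in WT (1.24 ± 0.08), and Lypd1, a modulator of nicotinic receptors, with 274.8 and 291.1 CPM in HD and 70.6 and 90.5 CPM in WT (1.81 ± 0.11, edgeR adjusted p = 0.000464 for each). Both were chosen after their values were seen.

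The called genes differed in length and position from all genes tested. Gene spans had a median of 102.0 kb among the higher genes, 43.7 kb among the lower and 23.5 kb over all genes with coordinates. With genes split into 4 equal classes by span, 4.33% of the longest class were called higher and 0.773% lower, against 0.994, 0.663 and 0.967% higher and 0.387% lower in each of the 3 shorter classes. Neighbouring genes were often called together: 37 of 322 called genes with coordinates (11.5%) had another called gene within 100 kb, in 35 of them one called in the same direction, while 3.79% of all genes tested had a called neighbour. Among these groups were Hoxb3, Hoxb5, Hoxb6 and Hoxb7; Chrna3, Chrna5 and Chrnb4; Draxin, Fbxo2, Fbxo44 and Disp3; and Onecut1 with Gm16551. These shares are descriptions, since neighbours can share regulation or reads.

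The series' lists of histone mark and Mnx1 regions were set beside the RNA calls at genes with coordinates, 252 higher, 70 lower and 14487 in all. H3K27me3 is the mark of Polycomb silencing and H3K27ac that of active promoters and enhancers. The authors gave 1 list for each mark and genotype, so there is no spread between replicates, and the names of single peaks in the WT list of H3K27ac read K27ac_KO. A region lay at a gene if it came within 1 kb of either end. H3K27me3 of the HD list marked 42.9% of the higher genes, 28 of the 70 lower genes and 15.8% of all. In the WT list, which is longer (5729 regions in HD and 9365 in WT), it marked 61.1% of the higher genes, 45.7% of the lower and 22.7% of all.

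Genes with H3K27me3 in the WT list and none in the HD list made up 18.3% of the higher genes (46 of 252), 5.71% of the lower (4 of 70) and 7.11% of all. Counted only among genes marked in the WT list, they were 46 of 154 higher, 4 of 32 lower and 1030 of 3292 over all. Among marked genes, the higher class therefore did not lack the mark in HD more often than all genes did. Cdh20, Pnoc, Pbx3, Foxp1, Chrna3, Chrna5, Pcsk1, Pcdh19, Hoxa5, Hoxb5, Hoxd4 and Alcam were among the 46, and Irx3 among the 4. Sox1, Dmrt3, Frzb, Gad1, Gad2, Slc6a5, Onecut1 and Chl1 rose with the mark listed in both genotypes. H3K27ac was listed in HD and not in WT at 9.13% of the higher genes (23 of 252), at none of the 70 lower genes and at 2.9% of all. Sox1, Dmrt3, Frzb, Scube2, Nkx1-1, Syt4, Pcsk1, Pcdh19, Reln, St8sia4 and Cdh7 were among these. The converse, H3K27ac in WT and not in HD, held at 0.794% of the higher genes (2 of 252), 11.4% of the lower (8 of 70) and 1.29% of all. The 8 were Nwd2, Lix1, Igfbp5, Dlk1, Irx2, Inpp4b, Isl2 and Hmga2.

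**Figure D5:**
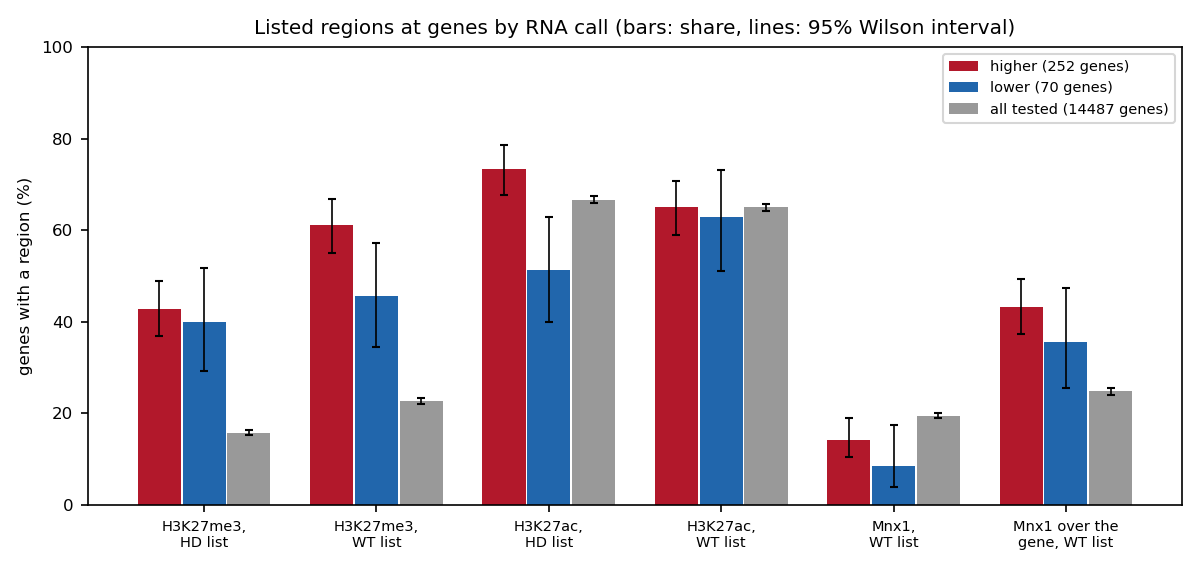
Share of genes with a listed region within 1 kb of either end of the gene, or, in the last group, an Mnx1 region anywhere over the gene, for genes called higher (252), called lower (70) and all genes tested with coordinates (14487); lines are 95% Wilson intervals, which cover counting error only. H3K27me3 of the WT list lies at 61.1% of the higher genes and 22.7% of all, and Mnx1 regions within 1 kb lie at 14.3% of the higher genes and 19.5% of all.

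Mnx1 regions, from WT cells only, lay within 1 kb of an end of 14.3% of the higher genes, 8.57% of the lower and 19.5% of all, and within 50 kb of 47.2, 52.9 and 48.8% of them in the same order. Over the whole gene span they lay in 43.3% of the higher genes, 35.7% of the lower and 24.8% of all, while the called genes were longer, as given above. Among the 20 largest rises 6 had an Mnx1 region over the gene (among them Sox6, Slc17a8, Sorcs3, Erbb4 and Lmo3), and among the 20 largest falls 10 did, among them Nwd2, Mecom, Lix1, Lhx4, Prdm16 and Epha4. At 27 of 194 higher and 6 of 54 lower genes with a window in the table the region overlapped the RefSeq promoter window, from 250 bases before to 50 bases after the transcript start. These are 13.9% and 11.1% of such genes, against 2264 of the 11300 tested genes with a window, a larger share than in either class, in a table that lacks many tested genes. Promoter windows of 4 such genes are shown because they hold a listed Mnx1 region at a gene whose RNA was called, for 2 rises and 2 falls. They are RefSeq sequences of GRCm38.p6, the patch release of the mm10 build, written 5′ to 3′ along the gene's strand, with any TAATTA in capitals, a core letter string of homeodomain binding searched on both strands, which read alike.
Zfp536, chr7:37769703-37770002, minus strand: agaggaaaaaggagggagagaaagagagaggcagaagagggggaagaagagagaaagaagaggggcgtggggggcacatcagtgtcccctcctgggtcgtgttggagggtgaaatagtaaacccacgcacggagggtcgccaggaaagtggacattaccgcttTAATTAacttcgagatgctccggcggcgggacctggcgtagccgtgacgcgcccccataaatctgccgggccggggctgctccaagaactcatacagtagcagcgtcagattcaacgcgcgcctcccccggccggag
Pcdh17, chr14:84443313-84443612, plus strand: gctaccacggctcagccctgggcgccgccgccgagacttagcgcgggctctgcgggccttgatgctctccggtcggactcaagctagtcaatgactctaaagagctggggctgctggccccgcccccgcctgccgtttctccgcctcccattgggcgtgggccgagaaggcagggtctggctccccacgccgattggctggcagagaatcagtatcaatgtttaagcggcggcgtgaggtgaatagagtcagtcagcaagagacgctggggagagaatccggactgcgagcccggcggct
Isl2, chr9:55540899-55541198, plus strand: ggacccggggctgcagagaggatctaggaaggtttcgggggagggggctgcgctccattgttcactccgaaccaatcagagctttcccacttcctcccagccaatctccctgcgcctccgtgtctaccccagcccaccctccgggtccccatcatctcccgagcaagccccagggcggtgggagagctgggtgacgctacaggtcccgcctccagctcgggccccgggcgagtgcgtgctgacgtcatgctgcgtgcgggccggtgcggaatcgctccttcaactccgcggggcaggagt
Lix1, chr17:17402436-17402735, plus strand: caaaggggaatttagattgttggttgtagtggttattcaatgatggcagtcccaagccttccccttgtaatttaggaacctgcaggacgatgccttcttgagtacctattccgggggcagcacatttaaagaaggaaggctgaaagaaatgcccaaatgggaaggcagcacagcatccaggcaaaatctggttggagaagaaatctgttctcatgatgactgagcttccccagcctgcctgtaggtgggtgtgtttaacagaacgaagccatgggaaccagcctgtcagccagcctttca

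Zfp536, a zinc finger gene of neuron differentiation, had 33.0 and 35.9 CPM in HD and 12.4 and 12.8 CPM in WT (log2 fold change 1.45 ± 0.11, edgeR adjusted p = 0.00085), had H3K27me3 in the WT list and not in the HD list, and holds 1 TAATTA in its window. Its Mnx1 region had a fold enrichment of 4.42 in the authors' peak list. Those of Pcdh17 (4.24), Isl2 (3.99) and Lix1 (4.85) were of similar enrichment, and none of these 3 windows holds the string. Of the called genes with an Mnx1 region in the window, 1 of the 27 higher (Zfp536) and none of the 6 lower hold TAATTA, which stands in 1738 of 32851 RefSeq promoter windows (5.29%). These letters are a description, and their absence from a window says nothing of binding there.

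Levels in the EH line, also labelled Mnx1KO, are given beside HD without a comparison, since both lines share the WT libraries and EH was sequenced to 39761579 and 39685395 counts. Cdh20 had 8.41 and 8.19 TPM in HD, 0.83 and 0.93 TPM in EH and 0.42 and 0.90 TPM in WT. Sox1 had 66.5 and 61.8 TPM in HD, 5.73 and 12.1 TPM in EH and 6.18 and 12.4 TPM in WT. Frzb had 110.8 and 101.7 TPM in HD, 13.2 and 13.3 TPM in EH and 22.4 and 27.1 TPM in WT. In these 3 genes the EH values were near or below the WT values. Other called rises differed from this. Reln had 9.87 and 7.9 TPM in HD, 14.87 and 11.48 TPM in EH and 2.06 and 2.63 TPM in WT. Chrna5 had 28.62 and 29.38 TPM in HD, 22.38 and 33.03 TPM in EH and 8.78 and 11.18 TPM in WT. For Reln and Chrna5 both EH values stood above both WT values. The genes set beside EH are examples, and how many called genes go each way is not given here. Pou3f1 had 1.83 and 1.97 TPM in HD, 1.89 and 2.45 TPM in EH and 11.1 and 11.2 TPM in WT, with both lines labelled Mnx1KO far below WT. Lhx4 had 38.7 and 29.7 TPM in HD, 92.5 and 109.2 TPM in EH and 83.9 and 67.2 TPM in WT. Nwd2 had 2.05 and 2.76 TPM in HD, 13.1 and 17.2 TPM in EH and 16.4 and 11.4 TPM in WT. In Lhx4 both EH values stood above both WT values, and in Nwd2 both stood above the lower WT value.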

How the data were processed

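The authors deposited RSEM expected counts and TPM per gene for each library, per the file headers. Libraries were poly(A)-selected and stranded, per the labels' protocols. STAR, RSEM, Bowtie2, featureCounts, DESeq2 and MACS2 with the mm10 build stand in the submitters' processing notes, with no versions. The authors deposited 1 peak list per mark and genotype, with a fold enrichment ratio and a −log10 q-value per peak; how libraries were combined is not given in the sources used here.

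Expected counts were rounded, filtered with filterByExpr and tested with edgeR 4.0.16 (TMM, quasi-likelihood, Benjamini-Hochberg threshold 0.05) in R 4.3.3, on the 4 libraries alone, without a replicate block. Residual degrees of freedom were 2, and the biological coefficient of variation was 0.079. The code was checked on simulated counts. Replicates of a group differed beyond sampling noise. Folds against 0 counts used a floor of 3 counts, which covers counting error only. Tables and intervals came from Python 3.11.15. Symbols were found for 45143 of 45706 IDs, and coordinates for 14487 of 15182 tested genes, from RefSeq (GRCm38.p6).

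The text names Mnx1, then the 20 largest changes in each direction among called genes with a mean of at least 1 CPM in the higher group, no overlap of groups and no provisional, pseudogene or mitochondrial name, and called list members. The members, the 45 lists and the marker lists were chosen with earlier results of these data known. Some genes that this rule names are not reported here.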

Additional observations from a re-analysis of the deposited data

How the results depend on the processing

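All 336 genes called kept their direction in each alternative in which they were tested. Counts stayed within 1.5 times of 336 with other scalings (330 with RLE, 306 with upper quartile), without a filter on low counts (243), with a stricter one (341), with robust dispersion (351) and with DESeq2 (344). They moved further with limma on log2(TPM + 1) (91) and with EH in the same fit (27), where the cause was not tested. An alternative chosen after seeing the data, without genes whose assignment SD exceeds 5% of their count, gave 316. Leaving out 1 library, with the lone sample assumed to vary like the other group, gave between 203 and 533, and 27 genes were called in none of these 4 fits. Isl1, not called at 0.11, was between -0.031 (without HD replicate 1) and 0.257 (without HD replicate 2), and at -0.01 without WT replicate 2.

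The labels give both groups replicate numbers 1 and 2 but do not say that a number marks a shared batch. Deviations of same-numbered libraries from their group means correlated at 0.141 across genes, and with 2 pairs this does not show pairing. With the replicate block 1754 genes were called, 972 higher and 782 lower (55.4% higher, against 77.1% without it), among them all 336.

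Depth ran from 11167544 to 13916957 counts with 2 libraries a group: 21 of the 259 higher genes were below 1 TPM in both WT libraries, and 21 called genes had uncertain read assignment.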

Other observations

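Regulators of RNA splicing in neurons were, Rbfox genes aside, not among the lists and were looked up after called genes had been seen. Celf4 (log2 fold change 1.08 ± 0.09) had 114.9 and 106.8 CPM in HD and 49.9 and 54.9 CPM in WT, Celf2 (0.94 ± 0.12) had 62.1 and 58.5 CPM in HD and 27.9 and 34.8 CPM in WT, and Nova1 (0.56 ± 0.07) had 154.4 and 151.0 CPM in HD and 101.5 and 105.3 CPM in WT. All 3 were called higher by edgeR (adjusted p = 0.00107, 0.00675 and 0.00592), as were Rbfox3 and Khdrbs3 (0.61 ± 0.08, adjusted p = 0.0113, and 0.0511 without HD replicate 1). Of 14 genes of the Celf, Nova, Rbfox and Khdrbs families tested 5 were called, beside 2.21% of all genes tested. Among the others were Celf1 at 209.0 and 203.7 CPM in HD and 196.1 and 224.8 CPM in WT, and Nova2 at 191.8 and 181.9 CPM in HD and 172.5 and 168.5 CPM in WT.

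The Groucho corepressor family, whose members bind many homeodomain proteins, was also looked up after called genes had been seen. Of 6 of its genes tested 2 were called higher and 1 lower, at a median of -0.26. Over all genes tested 1.71% were called higher and 0.507% lower. Tle1 had 215.4 and 206.7 CPM in HD and 134.4 and 142.0 CPM in WT (0.61 ± 0.07, edgeR adjusted p = 0.00497), while Tle3 had 147.5 and 160.9 CPM in HD and 202.3 and 227.9 CPM in WT (-0.48 ± 0.08, adjusted p = 0.0328). Tle4 was called higher (0.39 ± 0.07, adjusted p = 0.0293). The calls of Tle3 (without HD replicate 1 or WT replicate 2, adjusted p up to 0.179) and Tle4 (without HD replicate 1, WT replicate 1 or WT replicate 2, up to 0.199) ended when a library was left out. Of 9 Hs3st and Hs6st genes tested, which encode enzymes that modify heparan sulfate and were looked up after calls among them had been seen, 3 were called (1.71% of all genes tested were called higher). They were Hs3st3a1 (0.97 ± 0.12), Hs3st3b1 (0.58 ± 0.08) and Hs6st2 (1.21 ± 0.18), all higher, and the calls of the last 2 ended without HD replicate 1 (adjusted p = 0.0545 and 0.0648), while Hs3st1, Hs3st4, Hs3st5, Hs3st6, Hs6st1 and Hs6st3 were not called.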
